A study of Danio rerio with 24 samples.

Results

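Solute carriers are membrane proteins that move sugars, amino acids, ions, metals, vitamins and metabolites across the cell surface or across the membranes of organelles, and each numbered slc family tends to carry 1 class of substrate. In the gut, liver, pancreas and kidney they take up nutrients and pass them on, in neurons and glia they clear or package transmitters, and in mitochondria the slc25 family links the matrix to the cytosol. The set described here held every gene on the array whose annotated symbol starts with slc and a digit, with 1 named exception left out. It came to 136 of the 8793 genes with a single symbol, in 39 families, and each gene was represented by its brightest probe set. By symbol the set also takes in slc4a1ap and slc7a6os, which are named after a carrier and are not carriers themselves.

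The cells came from homozygous zebrafish embryos of the line Tg(XlEef1a1:GFP)s854, which is known for GFP in the digestive organs. GFP+ cells and GFP- cells were sorted at 2, 3, 4 and 6 days post fertilization (dpf), and each of these 8 groups of a gate at an age was measured on 3 Affymetrix arrays, 24 arrays in all. Every group shared the transgene, PTU given at 1 dpf against pigment, enzymatic dissociation of whole embryos, and SPIA amplification of the RNA to cDNA, so no group held untransgenic or unsorted cells. No source used here gives the number of embryos per sample or says that replicates came from separate clutches. The p-values therefore speak only of the spread among these 24 arrays. Values are scores on a scale that puts the median of each array at 0 and its SD over probe sets at 1, so that a difference of 1 is 1 array SD. A gene is called higher or lower where limma's test, fitted to all probe sets and adjusted by the Benjamini-Hochberg method, gave an adjusted p under 0.05, and all adjusted p-values below are of that kind. Scores of different genes are not compared as levels, since each probe set has its own brightness.

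The gates carried the markers of the organs they are named for, and not purely. All 7 measured liver markers, all 7 of exocrine pancreas and all 5 of enterocytes passed the test as higher in GFP+ cells averaged over the ages, and all 8 neuron and all 8 photoreceptor markers were lower. In GFP- cells the mean score of the liver markers was 0.02 to 0.28 at 2 dpf and 0.64 to 1.33 at 3 dpf. It was 1.48 to 3.19 at 4 dpf, and by 6 dpf it lay at 2.06 to 2.60. At 6 dpf alone 6 of the 7 liver markers, 0 of the 7 exocrine pancreas markers and 1 of the 5 enterocyte markers were called higher. The exocrine pancreas mean was then 4.00 to 4.13 in GFP+ cells, against 3.34 to 3.65 in GFP- cells, and the enterocyte mean 1.92 to 2.38, against 1.44 to 1.73. The part of this in the carrier calls at 6 dpf was not tested. In sorted bulk samples fewer cells of a type and less RNA per cell cannot be told apart. At 4 dpf the second array of each gate stood apart: the enterocyte mean was 2.23, 3.25 and 2.50 on the GFP+ arrays, against 0.78, 2.01 and 1.84 on the GFP- arrays, while the exocrine pancreas mean was 3.69, 2.75 and 3.65, against 2.46, 0.75 and 3.07. The third GFP- array at 4 dpf had the highest liver mean of its group, and the third GFP+ array at 6 dpf had a mean correlation of 0.897 with its own group, below that of any other array.

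Over the 4 ages 78 solute carrier genes were higher and 26 lower in GFP+ cells, 57.4% and 19.1% of the set, against 40.6% and 20.9% of all genes. The median difference was 0.17 for the carriers, against 0.09 for all genes. At 2 dpf 17 were higher and 7 lower (all genes: 12.3% and 7.71%), and the higher share of the set, 12.5%, was near the background. At 3 dpf 35 were higher and 18 lower (all genes: 18.5% and 11.9%). The 4 dpf arrays gave 40 higher and 21 lower (all genes: 23.2% and 12.1%). At 6 dpf 60 were higher and 18 lower (all genes: 25.8% and 15.6%), and the higher share of the set was 44.1%. Without the second array of each gate at 4 dpf the counts over the 4 ages were 80 higher and 25 lower.

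The fatty acid carrier slc27a2a, the glucose carrier slc2a2 and the mitochondrial carrier slc25a48 were the most raised over the 4 ages, and slc16a3b, slc1a2b and slc32a1, carriers of lactate, glutamate and inhibitory transmitters, the most lowered. Higher at every single age were slc11a2, slc16a1b, slc17a5, slc25a10b, slc25a16, slc25a17, slc25a26, slc25a27, slc25a48, slc27a2a, slc2a2 and slc48a1b, 12 in all. Lower at every single age were 3, slc1a2b, slc32a1 and slc9a7. Not all of these calls held in every fit. The replicate block ended that of slc17a5 at 4 dpf (adjusted p = 0.0682) and that of slc48a1b at 3 dpf (adjusted p = 0.0752), as did quantile normalization (adjusted p = 0.0582 and 0.0865). Fits without 1 array ended the calls of slc25a27 and slc25a48 at 2 dpf in 5 of 24 each, that of slc9a7 at 2 dpf in 4, and at least 1 single-age call of slc16a1b, slc17a5, slc25a26 and slc48a1b. No carrier was called in both directions at different ages, and 27 were called in no comparison of the gates. The shares of all genes called at every age, or in no comparison of the gates, were not counted. These numbers therefore have no background to be read against. For 9 carriers every GFP+ array lay above every GFP- array whatever the age (all genes: 3.32%), namely slc27a2a, slc11a2, slc30a7, slc39a3, slc25a17, slc25a16, slc25a3b, slc16a1b and slc2a8. For slc1a2b every GFP+ array lay below every GFP- array (all genes: 2.13%).

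Part of the excess of higher calls was among dim genes. The 53 carriers with a mean score below 0 (39.0%, against 38.6% of all genes) held 32 higher and 5 lower calls, and the median difference of the higher ones was 0.21. The 83 carriers with a mean score of 0 or more held 46 higher and 21 lower calls, and the median of the higher ones was 0.53 and of the lower ones -0.72. Among all genes below 0, 38.3% were higher and 11.5% lower. Of the 5402 genes with a mean score of 0 or more, 2268 were higher and 1448 lower. At that level 55.4% of the carriers were higher. The lower share there was 25.3% for the carriers, near the 26.8% of all genes. The 10th percentile of gene scores, the dim end of an array, was -0.51 to -0.47 on the GFP+ arrays at 4 dpf, against -0.63 to -0.60 on the GFP- arrays. The part of that gap in the small differences of dim carriers was not tested. After quantile normalization, which gives all arrays 1 distribution, 62 carriers were higher and 27 lower over the 4 ages. The median difference was then 0.14 for the carriers, against 0.04 for all genes. The shares of all genes called after this step were not counted, so the counts after it, here and below, have no background.

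**Figure D1:**
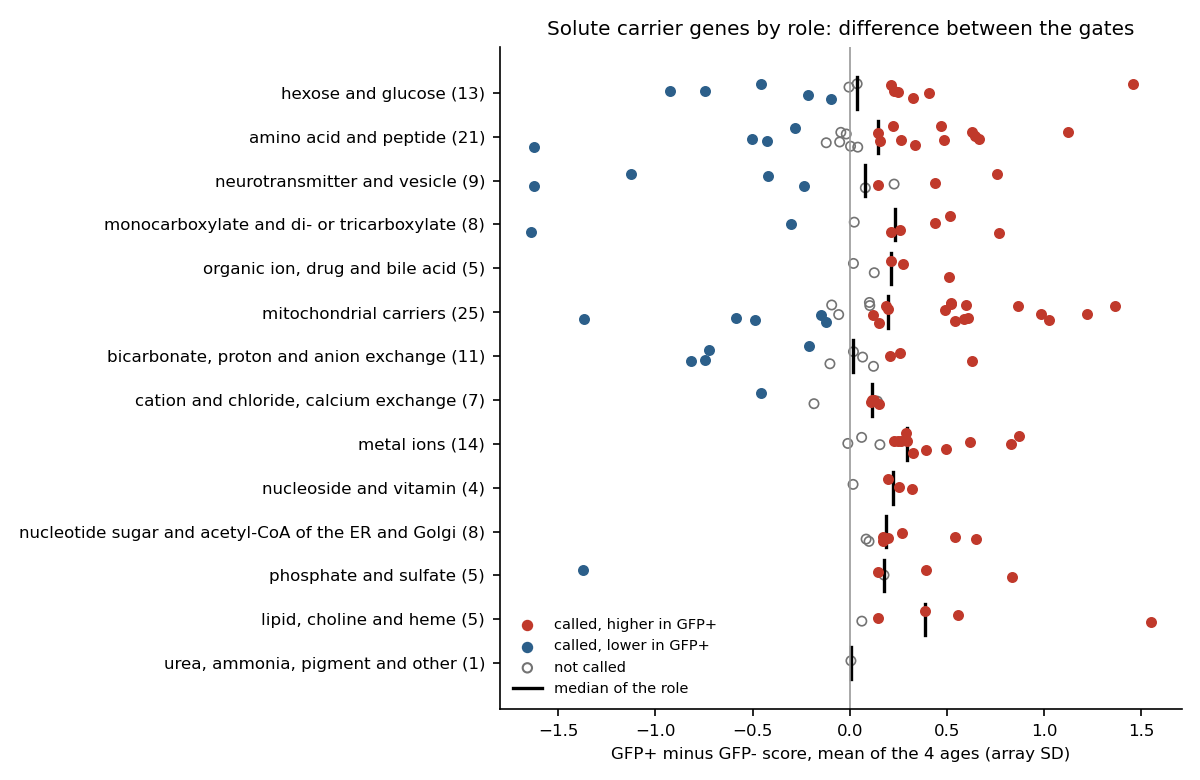
Difference between the gates for each of the 136 solute carrier genes, grouped by what the family is known to carry, with the number of genes in brackets. The x axis is the GFP+ minus GFP- score averaged over the 4 ages, in array SD; filled points passed the test, open points did not, and the black bar is the median of the role. Metal ion carriers have no point called lower, while the roles of glucose, transmitter and ion exchange carriers have calls on both sides.

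The split of each role is a description, to be read against 40.6% higher and 20.9% lower among all genes, and differences between roles were not tested. Over the 4 ages the counts of higher and lower members were 6 and 5 of 13 in the hexose and glucose families, 11 and 4 of 21 in those of amino acids and peptides, and 3 and 4 of 9 in those of neurotransmitters and vesicles. They were 16 and 5 of 25 among mitochondrial carriers, 3 and 4 of 11 among exchangers of bicarbonate, protons and anions, and 5 and 2 of 8 among carriers of mono-, di- and tricarboxylates. Carriers of metal ions had 11 higher and 0 lower of 14, and the lipid, choline and heme group 4 and 0 of 5. The slc35 family, grouped as nucleotide sugar carriers of the ER and Golgi, had 6 and 0 of 8. Among the lower calls of the amino acid role is slc7a6os (-0.28), and 1 of the 11 exchangers is slc4a1ap (0.07, not called), neither of them a carrier. Roles follow family numbers, so that the sulfate carrier slc13a1 (0.21, called higher) is counted among the carboxylate carriers. After quantile normalization the role medians of the hexose and of the exchanger families changed sign, to -0.01 and -0.04. The 7 carriers of cations with chloride and of calcium had 4 higher and 1 lower, but 0 higher and 2 lower after quantile normalization.

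Among sugar carriers the hepatic and pancreatic glucose carrier slc2a2 (GLUT2) and the high-affinity neuronal carrier slc2a3a (GLUT3) lay on opposite sides. slc2a2 scored 1.38, 1.13 and 1.29 in GFP+ cells at 2 dpf, against -0.27, -0.28 and -0.38 in GFP- cells, and 2.62, 2.56 and 2.54 at 6 dpf, against 1.12, 0.98 and 1.12. The gates did not overlap at any age, and the difference over the 4 ages was 1.46 ± 0.09 (SE; adjusted p = 6.75e-11). slc2a2 also rose with age in both gates, by 1.31 ± 0.18 in GFP+ cells (adjusted p = 1.67e-05) and by 1.38 ± 0.18 in GFP- cells (adjusted p = 1.35e-05) between 2 and 6 dpf, beside the rise of the liver markers in GFP- cells given above, whose part was not tested. On the GFP- arrays at 4 dpf it scored 0.70, 1.15 and 1.78. The liver mean on these arrays was 1.97, 1.48 and 3.19, and the exocrine pancreas mean 2.46, 0.75 and 3.07. The third array was thus the highest for all of these, while the first and second were in the other order for both lists.

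slc2a3a scored 0.34, 0.07 and -0.12 in GFP+ cells at 2 dpf, against 0.25, 0.41 and 0.10 in GFP- cells, and the gates overlapped. At 3 dpf it scored -0.02, -0.07 and -0.00 in GFP+ cells, against 1.52, 1.20 and 1.13 in GFP- cells, and at 6 dpf 0.14, 0.16 and 0.27, against 1.40, 1.32 and 0.96. From 3 dpf on all GFP+ arrays lay below all GFP- arrays of the same age, and the difference over the 4 ages was -0.92 ± 0.10 (adjusted p = 1.29e-07). In GFP- cells it rose by 0.97 ± 0.20 between 2 and 6 dpf (adjusted p = 0.00144). The neuron markers had a mean of 0.06 to 0.66 in GFP+ cells over all ages, against 1.22 to 2.42 in GFP- cells. They were already apart at 2 dpf, at 0.06 to 0.40, against 1.40 to 1.78. In GFP- cells 3 of the 8 were higher and 3 lower at 6 than at 2 dpf. Of the 8 photoreceptor markers 1 was lower in GFP+ cells at 2 dpf and 8 at 3 dpf, and 8 rose in GFP- cells between 2 and 6 dpf. The part of either list was not tested.

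Further members of these families were also measured. slc2a8, a carrier of intracellular membranes in mammals, was near the dim end of the arrays, at -0.60 to -0.18 in GFP+ cells, against -0.74 to -0.62 in GFP- cells, a difference of 0.25 ± 0.04 (adjusted p = 2.83e-05). slc37a2, a sugar-phosphate carrier of the ER, was higher by 0.33 ± 0.06 (adjusted p = 0.000225), and its relative slc37a4b, the glucose-6-phosphate carrier of the ER, was lower by -0.46 ± 0.06 (adjusted p = 4.58e-06). For slc2a15b the 2 probe sets disagreed, with differences of -0.21 and 0.13 that both passed the test, so that its direction is uncertain. slc2a11b and slc2a10 were not called over the 4 ages, with differences of -0.00 and 0.04.

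The slc5 family, numbered with the sodium-glucose carriers, was present here through members known for other substrates. slc5a12, a sodium-coupled lactate carrier, scored -0.16, -0.24 and 0.01 in GFP+ cells at 2 dpf, against -0.25, -0.30 and -0.30 in GFP- cells, and -0.08, -0.12 and -0.52 at 6 dpf, against 1.49, 1.25 and 0.70. At 2 dpf all GFP+ arrays lay above the GFP- arrays by a small margin that did not pass the test, and at 6 dpf all lay below. slc5a12 rose by 1.43 ± 0.18 in GFP- cells between these ages (adjusted p = 9.03e-06) and changed by -0.11 ± 0.18 in GFP+ cells (adjusted p = 0.713). slc5a6b, the sodium-dependent multivitamin carrier, was higher in GFP+ cells by 0.41 ± 0.07 (adjusted p = 6.83e-05).

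Amino acid carriers of the slc38 family rose most at the liver-type member. slc38a4 (SNAT4), which takes up neutral amino acids in mammalian liver, scored 0.52, 0.94 and 1.26 in GFP+ cells at 2 dpf, against 0.68, 0.73 and 0.84 in GFP- cells, and the gates overlapped. At 6 dpf it scored 3.01, 2.76 and 3.07 in GFP+ cells, against 1.41, 1.27 and 1.48 in GFP- cells. The gates did not overlap from 3 dpf on, and the difference was 1.12 ± 0.23 at 3 dpf (adjusted p = 0.000941). It was 1.65 ± 0.23 at 4 dpf (adjusted p = 2.12e-05), and 1.56 ± 0.23 on the arrays of 6 dpf (adjusted p = 2.52e-05). Within GFP+ cells it rose by 2.04 ± 0.23 between 2 and 6 dpf (adjusted p = 2.34e-06), the largest rise of any carrier in that comparison. On the GFP- arrays at 4 dpf it scored 0.60, 0.47 and 1.71.

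The other slc38 members split. slc38a5b, a carrier of glutamine and related amino acids, was higher in GFP+ cells by 0.47 ± 0.09 (adjusted p = 9.6e-05), and slc38a2, a widespread neutral amino acid carrier, was lower by -0.43 ± 0.09 (adjusted p = 0.000537). slc38a2 scored 0.65, 0.99 and 0.87 in GFP+ cells at 2 dpf, against 1.18, 1.20 and 1.30 in GFP- cells, but 1.84, 1.36 and 1.52 at 6 dpf, against 1.54, 1.63 and 1.49. The gates thus overlapped at 6 dpf, and the rise in GFP+ cells was 0.74 ± 0.18 (adjusted p = 0.00536). slc38a6 and slc38a7 were not called, with differences of 0.04 and -0.05. The other probe set of slc38a7, slightly dimmer, was called higher (0.15, adjusted p = 0.0194), so that its direction is uncertain.

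Glutamate carriers of the slc1 family lay on both sides. slc1a2b, the glial glutamate carrier, scored 0.60, 0.68 and 0.29 in GFP+ cells at 2 dpf, against 2.25, 2.36 and 2.00 in GFP- cells, and at 6 dpf 0.97 to 1.81, against 2.62, 2.69 and 2.64. It was lower at each age and by -1.63 ± 0.10 over the 4 ages (adjusted p = 1.26e-10), while within GFP+ cells it rose by 0.91 ± 0.21 between 2 and 6 dpf (adjusted p = 0.00287). slc1a3a, its relative, was higher in GFP+ cells by 0.63 ± 0.09 (adjusted p = 7.41e-06), and the neutral amino acid exchanger slc1a4 by 0.48 ± 0.09 (adjusted p = 6.86e-05). At 6 dpf slc1a4 scored 1.19, 1.03 and 1.23 in GFP+ cells, against -0.10, -0.17 and 0.32 in GFP- cells.

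Carriers of large neutral and cationic amino acids followed. Of the cationic carriers, slc7a1b was higher by 0.16 ± 0.04 (adjusted p = 0.00188) at a mean score of -0.51, and slc7a3a was not called (-0.02 ± 0.06). slc43a1a (LAT3), a carrier of branched-chain amino acids, was higher in GFP+ cells by 0.65 ± 0.10 (adjusted p = 2.38e-05), and on the second GFP+ array at 4 dpf it was 1.04 against 1.69 and 1.70 on the others. The heavy chain genes slc3a2a and slc3a2b, whose product partners the light chains of the slc7 family, were called in opposite directions, at 0.34 ± 0.10 and -0.51 ± 0.07 (adjusted p = 0.00821 and 9.02e-06). slc7a8a, a light chain for neutral amino acids, was not called over the 4 ages (0.00 ± 0.15), with 0.04, 1.98 and 0.51 in GFP+ cells at 4 dpf, against 0.47, 0.78 and 0.58 in GFP- cells. At 6 dpf it was lower, at 0.07, -0.07 and -0.43 in GFP+ cells, against 0.72, 1.04 and 0.66 in GFP- cells (adjusted p = 0.0189). This call was lost without the third GFP+ array (-0.81, adjusted p = 0.0684), and when the probe sets of slc7a8a were averaged (-0.59, adjusted p = 0.0694). slc7a7, a light chain of enterocytes and kidney in mammals, was called higher by 0.27 ± 0.11 (adjusted p = 0.0434), and 14 of the 24 fits that each left out 1 array lost this call.

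The gut peptide carrier slc15a1b (PepT1), which takes up di- and tripeptides at the brush border, was higher in GFP+ cells by 0.67 ± 0.14 (adjusted p = 0.000342). It scored -0.17, -0.61 and -0.33 in GFP+ cells at 2 dpf, against -0.52, -0.63 and -0.59 in GFP- cells, and 0.71, 0.53 and 0.05 at 3 dpf, against -0.72, -0.42 and -0.52. At 4 dpf it scored 0.79 on the first and 1.91 on the second GFP+ array, with the third between them, against -0.63, 0.58 and 0.23 in GFP- cells, and at 6 dpf 0.82, 0.33 and 0.30, against 0.27, 0.40 and -0.03. The gates were apart at 3 and 4 dpf and overlapped at 2 and 6 dpf. Both gates were highest on the second array at 4 dpf, the array with the highest enterocyte mean of its gate, and without these arrays the difference at 4 dpf was 1.15 (adjusted p = 0.00228), against 1.21 with them. Fitted on the 6 arrays at 4 dpf alone, slc15a1b lost its call (adjusted p = 0.0785).

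**Figure D2:**
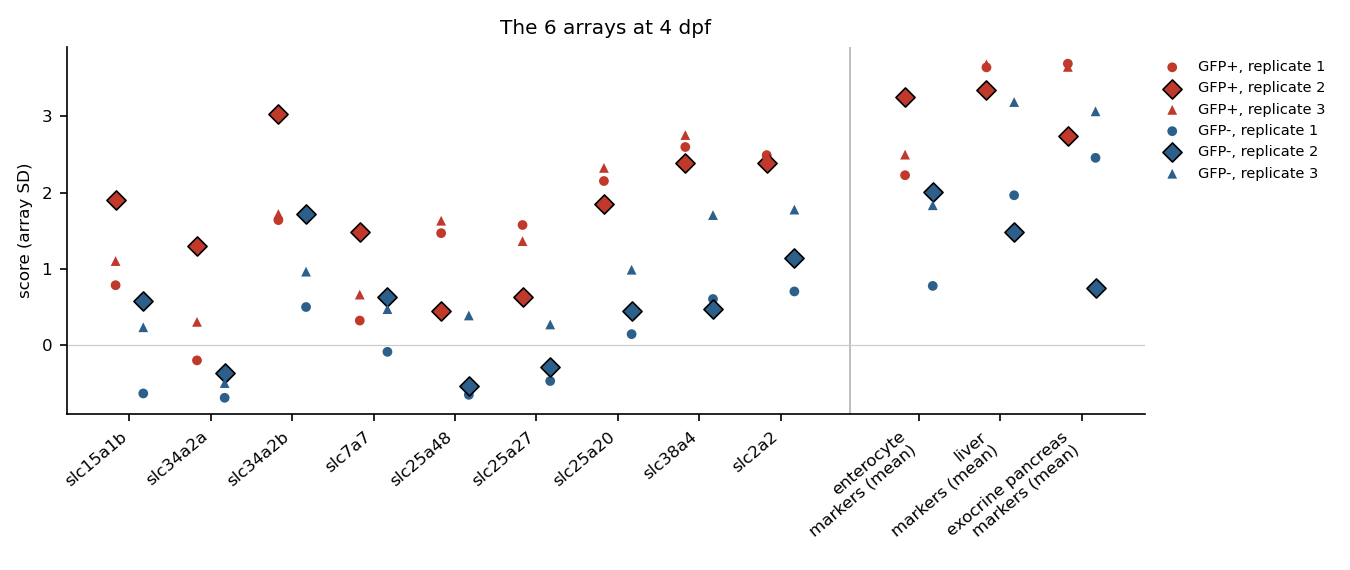
Scores of 9 solute carriers, and mean scores of 3 marker lists, on the 6 arrays at 4 dpf. The y axis is the score in array SD, red is GFP+ and blue is GFP-, and diamonds mark the second array of each gate. On that GFP+ array slc15a1b, slc34a2a, slc34a2b and slc7a7 are higher than on the other GFP+ arrays, and slc25a48, slc25a27 and the exocrine pancreas markers are lower.

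Transporters of neurotransmitters and of synaptic vesicles included some of the most lowered carriers. slc32a1, which loads GABA and glycine into vesicles, scored -0.20, -0.32 and -0.53 in GFP+ cells at 2 dpf, against 1.16, 0.90 and 0.77 in GFP- cells, and -0.42, -0.30 and -0.12 at 6 dpf, against 1.87, 1.58 and 1.32. No GFP+ array reached a GFP- array of its own age, and the difference was -1.62 ± 0.14 (adjusted p = 5.89e-09). slc6a17, a vesicular carrier of neutral amino acids, was lower by -1.13 ± 0.11 (adjusted p = 3.06e-08), and slc18a3a, which loads acetylcholine into vesicles, by -0.42 ± 0.10 (adjusted p = 0.00194). At 4 dpf the second GFP- array was the lowest of its gate for slc32a1, at 0.16 against 1.96 and 1.35, and for slc6a17, at -0.48 against 0.73 and 0.38. Fitted on the 6 arrays at 4 dpf alone, the difference of slc32a1 was -1.46 (adjusted p = 0.055).

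The GABA carrier slc6a11a was lower in GFP+ cells at 2 dpf alone among the 4 ages. It scored -0.36, -0.64 and -0.53 in GFP+ cells at 2 dpf, against 0.47, 0.17 and 0.07 in GFP- cells, and -0.56, -0.57 and -0.18 at 6 dpf, against -0.60, -0.73 and -0.50. The gates were apart at 2 dpf and overlapped at 6 dpf. In GFP- cells slc6a11a fell by -0.84 ± 0.13 between 2 and 6 dpf (adjusted p = 0.000109).

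Other members of these families were higher or not called. slc17a5 (sialin), the lysosomal exporter of sialic acid, scored 1.54, 1.35 and 0.79 in GFP+ cells at 2 dpf, against 0.47, 0.33 and 0.63 in GFP- cells, and 1.84, 1.96 and 1.85 at 6 dpf, against 0.72, 0.71 and 0.74. It was higher at each age and by 0.76 ± 0.08 over the 4 ages (adjusted p = 2.24e-07). slc17a9b, a vesicular nucleotide carrier, was higher by 0.44 ± 0.07 (adjusted p = 1.59e-05), and the dopamine carrier slc6a3 by 0.14 ± 0.03 (adjusted p = 0.000414) at a mean score of -0.61. Quantile normalization ended the call of slc6a3 over the 4 ages (0.07, adjusted p = 0.0509). The intestinal and renal amino acid carriers slc6a19b and slc6a19a.1 were not called, at 0.23 ± 0.14 and 0.08 ± 0.13, and slc6a19b scored -0.35, 1.18 and -0.13 in GFP+ cells at 4 dpf, against -0.64, 0.15 and -0.51 in GFP- cells.

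The monocarboxylate family slc16 held the most lowered carrier of all. slc16a3b (MCT4), which exports lactate from glycolytic cells, scored 0.49, 1.13 and 1.17 in GFP+ cells at 2 dpf, against 1.47, 1.25 and 1.16 in GFP- cells, and the gates overlapped. At 4 dpf it scored 0.05, 0.20 and 0.07 in GFP+ cells, against 2.56, 2.44 and 2.23 in GFP- cells, and at 6 dpf 0.45, -0.07 and 0.15, against 2.33, 1.98 and 2.14. From 3 dpf on the gates were apart, and the difference over the 4 ages was -1.64 ± 0.12 (adjusted p = 4.89e-10). Between 2 and 6 dpf slc16a3b fell by -0.75 ± 0.23 in GFP+ cells (adjusted p = 0.0236) and rose by 0.85 ± 0.23 in GFP- cells (adjusted p = 0.0131). 4 of the 24 fits without 1 array lost the fall in GFP+ cells (adjusted p = 0.0525 to 0.109), and 2 lost the rise in GFP- cells.

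Relatives of this carrier were also measured. slc16a1b (MCT1), a carrier of lactate and pyruvate in both directions, was at -0.09 to 0.61 in GFP+ cells, against -0.53 to -0.21 in GFP- cells, and the gates did not overlap over all 24 arrays (0.51 ± 0.06, adjusted p = 3.92e-07). slc16a12b, known as a creatine carrier in mammals, was higher by 0.77 ± 0.11 (adjusted p = 6.03e-06), and at 4 dpf it scored 0.98, -0.19 and 0.48 in GFP+ cells, against -0.22, 0.30 and -0.13 in GFP- cells, where the gates overlapped. slc16a9b was lower by -0.30 ± 0.10 (adjusted p = 0.0133), and its duplicate slc16a9a was not called (0.02 ± 0.09). The call of slc16a9b at 4 dpf (-0.53, adjusted p = 0.0465) was lost without the second arrays of that age (-0.24, adjusted p = 0.369). Among carriers of di- and tricarboxylates, slc13a2, of Krebs cycle acids, was higher by 0.44 ± 0.10 (adjusted p = 0.000691).

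Organic cation, organic anion and bile acid carriers had 3 of 5 members higher over the 4 ages and none lower (all genes: 40.6% and 20.9%). slc22a2, an organic cation carrier, scored 0.33, 0.01 and -0.02 in GFP+ cells at 2 dpf, against 0.22, 0.52 and 0.21 in GFP- cells, and 1.88, 1.47 and 2.16 at 6 dpf, against 1.00, 0.67 and 0.71. The gates overlapped at 2 dpf and were apart at 6 dpf, and slc22a2 rose by 1.73 ± 0.19 in GFP+ cells between these ages (adjusted p = 1.99e-06). slc10a2, the ileal bile acid carrier, was called higher by 0.21 ± 0.04 (adjusted p = 0.000163) at scores between -0.70 and -0.24 in GFP+ cells, against -0.82 to -0.68 in GFP- cells, at the dim end of the arrays.

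Mitochondrial carriers were the largest family, and over the 4 ages 16 of 25 were higher and 5 lower in GFP+ cells (all genes: 40.6% and 20.9%). By age, 6 were higher and 1 lower at 2 dpf (all genes: 12.3% and 7.71%), and 10 and 2 at 3 dpf (all genes: 18.5% and 11.9%). Among the 4 dpf samples 12 were higher and 4 lower (all genes: 23.2% and 12.1%), and by 6 dpf 15 were higher and 4 lower (all genes: 25.8% and 15.6%). After quantile normalization the count over the 4 ages was 15 higher and 5 lower. The members furthest up were slc25a48 (1.37 ± 0.13), slc25a20 (1.22 ± 0.10), slc25a27 (1.03 ± 0.12), slc25a10b (0.98 ± 0.08) and slc25a26 (0.87 ± 0.10).

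slc25a20, which carries acylcarnitines into the matrix for fatty acid oxidation, scored 0.54, 0.78 and 1.14 in GFP+ cells at 2 dpf, against 0.38, 0.26 and 0.27 in GFP- cells, and 2.10, 1.79 and 1.74 at 6 dpf, against 0.02, 0.25 and 0.25. The gates were apart at each age, though the difference at 2 dpf did not pass the test (0.52 ± 0.19, adjusted p = 0.067). slc25a20 rose by 1.06 ± 0.19 in GFP+ cells (adjusted p = 0.000314) and differed by -0.12 ± 0.19 in GFP- cells (adjusted p = 0.784). slc25a48, known as a mitochondrial choline carrier in mammals, scored 0.43, -0.11 and 0.09 in GFP+ cells at 2 dpf, against -0.75, -0.65 and -0.66 in GFP- cells, and 2.01, 1.90 and 1.88 at 6 dpf, against -0.10, -0.18 and 0.06. It rose by 1.79 ± 0.25 in GFP+ cells (adjusted p = 2.81e-05). On the second GFP+ array at 4 dpf slc25a48 was 0.45, against 1.47 and 1.63 on the others, and without the second arrays its difference at 4 dpf was 1.68, against 1.45 with them.

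The remaining leading mitochondrial carriers were higher at every age. slc25a27, an uncoupling protein relative known from mammalian brain, was highest in GFP+ cells at 4 dpf, at 1.58, 0.63 and 1.36, against -0.47, -0.29 and 0.27 in GFP- cells. slc25a10b, the dicarboxylate carrier, lay at 0.01 to 1.28 in GFP+ cells, against -0.47 to 0.06 in GFP- cells. slc25a26, which imports S-adenosylmethionine, lay at 0.58 to 1.78, against 0.17 to 0.89. The peroxisomal carrier of coenzyme A, slc25a17, and the less characterized slc25a16 did not overlap between gates over all arrays, with differences of 0.61 ± 0.06 and 0.60 ± 0.06 (adjusted p = 2.36e-08 and 7.63e-08).

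On the lower side, slc25a1a, the citrate carrier that exports acetyl units for lipid synthesis, was lower by -0.58 ± 0.07 (adjusted p = 1.26e-06), at -0.14 to 0.56 in GFP+ cells, against 0.54 to 1.37 in GFP- cells. slc25a12, the aspartate and glutamate carrier known from mammalian brain and muscle, was lower by -0.15 ± 0.05 (adjusted p = 0.0104). In GFP+ cells slc25a12 scored 1.34, 1.33 and 1.23 at 6 dpf, against 1.91, 1.95 and 2.11 at 2 dpf, a change of -0.69 ± 0.09 (adjusted p = 1.84e-05). The erythroid iron importer slc25a37 (mitoferrin) was at the dim end in both gates, at -0.71 to -0.26 in GFP+ cells, against -0.76 to -0.56 in GFP- cells. The ATP/ADP carrier slc25a4 was not called (0.10 ± 0.06, adjusted p = 0.133).

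**Figure D3:**
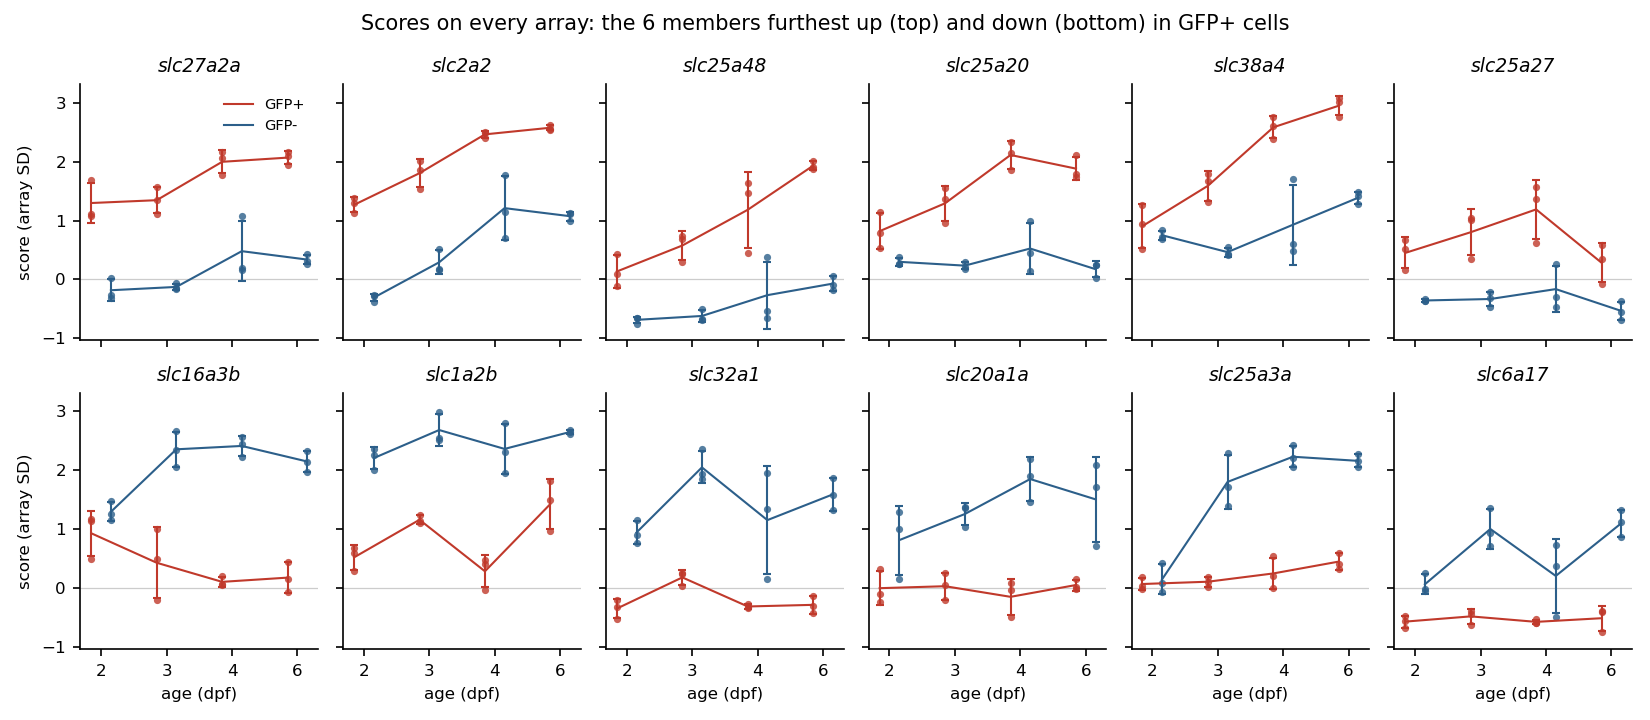
Scores on every array for the 6 solute carriers with the largest positive (top row) and the 6 with the largest negative difference over the 4 ages (bottom row). The x axis is age in dpf and the y axis the score in array SD; points are arrays (red GFP+, blue GFP-), lines join group means and bars are ± 1 SD of 3 arrays. slc38a4, slc25a20 and slc25a48 rise in GFP+ cells between 2 and 6 dpf, while for slc25a3a the gates overlap at 2 dpf and its GFP- arrays lie higher later.

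Of 8 pairs of teleost duplicates measured as both a and b, 2 were higher together (slc25a44 and slc34a2), none were lower together, 3 were called in opposite directions and 3 were not both called. Duplicate pairs were not counted over all genes, so these counts have no background to be read against. The clearest opposite pair encodes the mitochondrial phosphate carrier, which supplies phosphate for ATP synthesis. slc25a3a scored 0.04, -0.01 and 0.19 in GFP+ cells at 2 dpf, against 0.43, 0.09 and -0.07 in GFP- cells, and 0.33, 0.60 and 0.42 at 6 dpf, against 2.16, 2.05 and 2.27. slc25a3b scored 2.18, 2.16 and 2.49 in GFP+ cells at 2 dpf, against 1.96, 2.10 and 2.09 in GFP- cells, and 2.89, 2.74 and 2.85 at 6 dpf, against 1.73, 1.89 and 1.77. Over the 4 ages slc25a3a was lower by -1.36 ± 0.09 (adjusted p = 1.85e-10) and slc25a3b higher by 0.59 ± 0.05 (adjusted p = 8.05e-09).

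With age the pair also moved apart. slc25a3a rose by 2.01 ± 0.18 in GFP- cells between 2 and 6 dpf (adjusted p = 2.02e-07), the largest rise of any carrier in that gate, and changed by 0.38 ± 0.18 in GFP+ cells (adjusted p = 0.15). slc25a3b rose by 0.55 ± 0.10 in GFP+ cells (adjusted p = 0.000464) and changed by -0.25 ± 0.10 in GFP- cells (adjusted p = 0.0997). In mammals a single gene makes a muscle form and a ubiquitous form of this carrier by splicing. The measured skeletal muscle markers, 3 of the 6 listed, had a mean of -0.36 to -0.13 in GFP+ cells at 6 dpf, against -0.23 to 0.42 in GFP- cells. At 2 dpf their mean was 0.98 to 1.54, against 1.39 to 1.95, so that it fell with age in both gates. The photoreceptor markers had a mean of -0.27 to 0.29 in GFP- cells at 2 dpf and of 2.77 to 3.21 at 6 dpf. In GFP+ cells it was -0.44 to -0.25 and then 0.20 to 0.45. The part of either list in the difference was not tested.

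The other opposite pairs were slc25a55a and slc25a55b, at -0.49 ± 0.09 and 0.52 ± 0.10 (adjusted p = 0.0002 and 0.000114), and slc3a2a with slc3a2b, given above. At 6 dpf slc25a55b scored 1.15, 0.93 and 0.40 in GFP+ cells, against -0.39, -0.54 and -0.06 in GFP- cells, while slc25a55a scored 1.76, 1.98 and 1.17, against 2.62, 2.49 and 2.63. For both genes the gates overlapped at 2 dpf. A further 5 probe sets were annotated to slc3a2b together with calmodulin genes and were not used. Duplicates are close in sequence, and whether their probe sets detect each other's transcript was not tested.

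**Figure D4:**
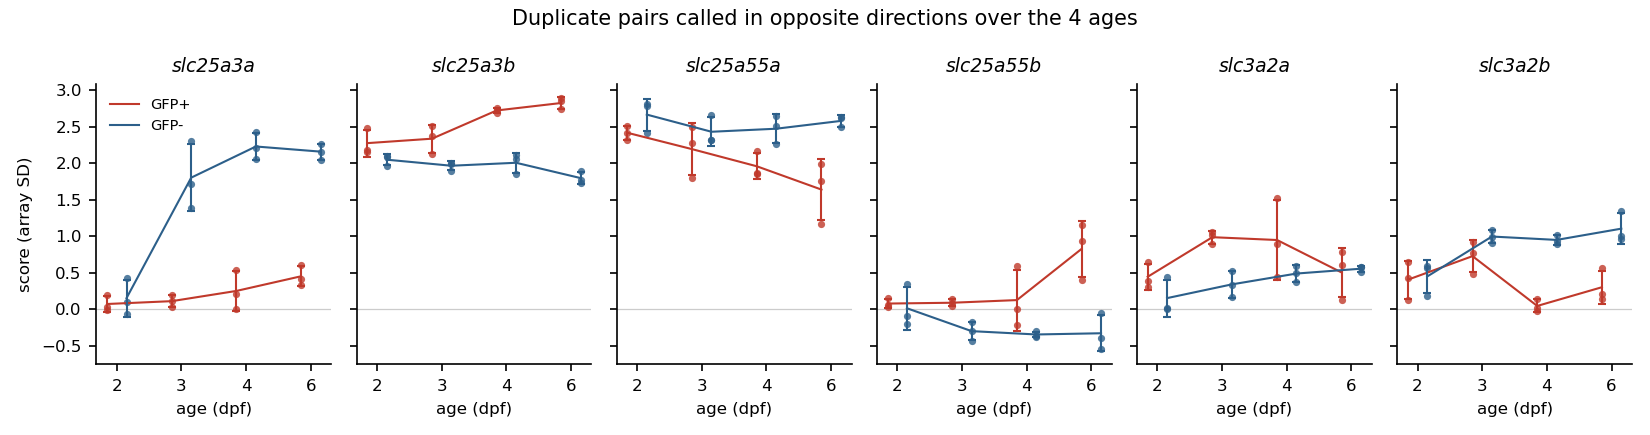
The 3 duplicate pairs of solute carriers called in opposite directions over the 4 ages. The x axis is age in dpf and the y axis the score in array SD; points are arrays (red GFP+, blue GFP-), lines join group means and bars are ± 1 SD of 3 arrays. For slc25a3a the GFP- arrays lie at about the GFP+ level at 2 dpf and above it later, and for slc25a3b the GFP+ arrays lie above the GFP- arrays from 2 dpf on.

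Exchangers of bicarbonate, protons and anions split 3 higher and 4 lower of 11 over the 4 ages (all genes: 40.6% and 20.9%). slc4a2a (AE2), a chloride and bicarbonate exchanger of epithelia, scored 1.13, 1.17 and 1.26 in GFP+ cells at 2 dpf, against 2.70, 2.40 and 2.56 in GFP- cells, and 1.59, 1.45 and 1.90 at 6 dpf, against 1.67, 1.74 and 1.45. The gates were apart at 2, 3 and 4 dpf and overlapped at 6 dpf. At 4 dpf it scored 1.35, 1.30 and 1.53 in GFP+ cells, against 1.76, 2.77 and 1.56 in GFP- cells, and its call there (-0.64, adjusted p = 0.028) was lost without the second arrays (-0.22, adjusted p = 0.355). In GFP- cells slc4a2a fell by -0.93 ± 0.21 between 2 and 6 dpf (adjusted p = 0.00355).

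slc9a7, a sodium and proton exchanger of the Golgi and endosomes, was lower at each age and by -0.74 ± 0.06 over all (adjusted p = 5.56e-09), at -0.17 to 0.23 in GFP+ cells, against 0.21 to 1.16 in GFP- cells. slc26a5 (prestin), known from mammalian hair cells, was higher by 0.63 ± 0.09 (adjusted p = 2.89e-06) and most so at 2 dpf, with 1.70, 1.64 and 1.67 in GFP+ cells, against 0.71, 0.53 and 0.67 in GFP- cells. slc4a1a (band 3), the anion exchanger of red blood cells, was lower by -0.72 ± 0.22 (adjusted p = 0.00803), and at 4 dpf it scored 0.38, -0.32 and 0.40 in GFP+ cells, against 2.15, 0.10 and 1.85 in GFP- cells, where the gates overlapped. The mean of the 7 measured erythrocyte markers at 4 dpf was -0.38 to -0.24 in GFP+ cells, against -0.47 to 0.42 in GFP- cells. Of these 7 markers 2 were lower over the 4 ages, and their part in the result was not tested. Among carriers of cations and calcium, the calcium exchanger slc24a4a was lower by -0.46 ± 0.07 (adjusted p = 7.23e-06). slc12a7b, a potassium and chloride carrier, was not called over the 4 ages (-0.18 ± 0.09, adjusted p = 0.1), yet it rose between 2 and 6 dpf by 1.03 ± 0.19 in GFP+ cells and by 1.47 ± 0.19 in GFP- cells (adjusted p = 0.000407 and 1.38e-05).

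Metal ion carriers were higher or not called: 11 of 14 were higher over the 4 ages and none lower (all genes: 40.6% and 20.9%). At 6 dpf 10 were higher and none lower (all genes: 25.8% and 15.6%). The call of slc39a5 at 6 dpf was lost in 19 of the 24 fits without 1 array. After quantile normalization 9 were higher over the 4 ages and none lower. slc11a2 (DMT1), which takes up ferrous iron in the gut and from endosomes, scored 1.87, 1.93 and 2.05 in GFP+ cells at 2 dpf, against 1.24, 1.33 and 1.34 in GFP- cells, and 2.51, 2.64 and 2.60 at 6 dpf, against 1.11, 1.37 and 1.65. All 12 GFP+ arrays lay above all 12 GFP- arrays, and the difference was 0.87 ± 0.07 (adjusted p = 4.81e-09). slc31a1 (CTR1), the copper importer, was higher by 0.83 ± 0.10 (adjusted p = 4.75e-07), and it was highest at 4 dpf on the second GFP+ array, at 3.05 against 2.46 and 2.42. slc40a1 (ferroportin), the iron exporter, was called higher by 0.25 ± 0.10 (adjusted p = 0.0366), and 12 of the 24 fits without 1 array lost this call.

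Zinc carriers of the slc30 family, which move zinc out of the cytosol, and of the slc39 family, which move it in, had 3 of 5 and 5 of 6 members higher over the 4 ages, and none lower (all genes: 40.6% and 20.9%). None of the 11 was called at 2 dpf, where few genes were called in all (all genes: 12.3% higher and 7.71% lower). slc30a7, which loads zinc into the early secretory pathway, lay at 1.38 to 2.22 in GFP+ cells, against 0.91 to 1.35 in GFP- cells (0.62 ± 0.07, adjusted p = 1.05e-07). slc39a3, a plasma membrane importer, lay at 0.01 to 0.79 in GFP+ cells, against -0.32 to -0.02 in GFP- cells (0.49 ± 0.05, adjusted p = 2.96e-08). slc30a6 scored 1.29, 0.87 and 1.20 in GFP+ cells at 6 dpf, against 0.15, 0.24 and 0.29 in GFP- cells, and rose by 0.73 ± 0.12 in GFP+ cells between 2 and 6 dpf (adjusted p = 0.000135). slc30a1a, the zinc exporter of the cell surface, slc30a5 and slc39a13 were not called, at -0.01, 0.15 and 0.06.

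The role of phosphate and sulfate held only the phosphate families slc20 and slc34. Of its 5 members 3 were higher over the 4 ages and 1 lower (all genes: 40.6% and 20.9%). slc34a2b, a sodium phosphate carrier of absorptive epithelia, scored 2.37, 2.26 and 2.25 in GFP+ cells at 2 dpf, against 1.27, 1.68 and 1.54 in GFP- cells, and 1.15, 1.22 and 0.59 at 6 dpf, against 0.96, 1.08 and 0.70. The gates were apart at 2 and 3 dpf and overlapped at 4 and 6 dpf, and slc34a2b fell by -1.31 ± 0.29 in GFP+ cells (adjusted p = 0.00229). At 4 dpf slc34a2b scored 1.64, 3.03 and 1.72 in GFP+ cells, against 0.50, 1.72 and 0.96 in GFP- cells. Its duplicate slc34a2a scored -0.20, 1.30 and 0.30, against -0.69, -0.37 and -0.50. Without the second arrays of both gates the difference at 4 dpf was 0.95 for slc34a2b (adjusted p = 0.000776), against 1.07 with them. Without the second GFP+ array alone it was 0.62 (adjusted p = 0.0576), and without the first GFP- array alone 0.79 (adjusted p = 0.0622). On the 6 arrays at 4 dpf alone slc34a2b had an adjusted p of 0.152 and slc34a2a of 0.107. In the fit to all ages without the second arrays of both gates, the difference of slc34a2a at 4 dpf was 0.65 (adjusted p = 0.00374), against 0.99 with them. The widely expressed carrier slc20a1a was lower by -1.37 ± 0.15 (adjusted p = 1.6e-07), at -0.50 to 0.32 in GFP+ cells, against 0.16 to 2.19 in GFP- cells, and its duplicate slc20a1b was not called (0.18 ± 0.07, adjusted p = 0.0501). Their relative slc20a2 was called higher by 0.14 ± 0.06 (adjusted p = 0.04), and 13 of the 24 fits without 1 array lost this call.

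The lipid group held the most raised carrier. slc27a2a, which takes up and activates fatty acids in mammalian liver and kidney, scored 1.08, 1.12 and 1.69 in GFP+ cells at 2 dpf, against -0.26, 0.03 and -0.32 in GFP- cells, and 2.16, 2.10 and 1.94 at 6 dpf, against 0.27, 0.32 and 0.42. All GFP+ arrays lay above all GFP- arrays, and the difference was 1.55 ± 0.10 (adjusted p = 1.17e-10). slc27a1a, a fatty acid carrier known from mammalian muscle and fat, was higher by 0.56 ± 0.08 (adjusted p = 3.49e-06), and the heme carrier slc48a1b by 0.39 ± 0.06 (adjusted p = 5.47e-06). slc27a6 was not called (0.06 ± 0.06).

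Nucleotide sugar carriers feed glycosylation in the ER and Golgi. The slc35 family, grouped here under that role by its number, had 6 of 8 members higher and none lower (all genes: 40.6% and 20.9%). Not all of its members are established carriers of nucleotide sugars, and slc35d1a, which is one, was not called (0.10, adjusted p = 0.186). The call of slc35f6 (adjusted p = 0.0458) was lost in 17 of the 24 fits without 1 array. The largest differences were those of slc35h1, at 0.65 ± 0.11, and of slc35b4, at 0.54 ± 0.10 (adjusted p = 3.49e-05 and 6.96e-05). slc35b4 scored 1.74, 2.26 and 1.61 in GFP+ cells at 4 dpf, against 0.90, 1.51 and 1.00 in GFP- cells, and the gates were apart. Among vitamin and nucleoside carriers 3 of 4 were higher (all genes: 40.6%), all at mean scores below 0. The riboflavin carrier slc52a2 differed by 0.20 ± 0.03 and the folate carrier slc46a1 by 0.25 ± 0.06 (adjusted p = 6.17e-05 and 0.00106).

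The change with age was mostly upward in both gates. In GFP+ cells 30 carriers were higher and 5 lower at 6 than at 2 dpf (all genes: 10.5% and 16.2%), so that carriers had the larger share on the higher side and all genes on the lower side. In GFP- cells 19 were higher and 3 lower (all genes: 9.11% and 12.2%). The median change was 0.16 for carriers in GFP+ cells, against 0.02 for all genes, and 0.06 in GFP- cells, against -0.04. After slc38a4, slc25a48, slc22a2 and slc2a2 the largest rises in GFP+ cells were those of slc25a43 (adjusted p = 3.34e-05) and slc25a20. The 5 that fell were slc34a2b, slc7a8a (-0.90), slc25a55a (-0.78), slc16a3b and slc25a12. Of these, the fall of slc7a8a was lost in 5 of the 24 fits without 1 array, and when its probe sets were averaged (-0.58, adjusted p = 0.111).

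In GFP- cells the largest rises were those of slc25a3a, slc12a7b, slc5a12, slc2a2, slc6a17 (1.03 ± 0.22) and slc2a3a. The 3 that fell were slc4a2a, slc6a11a and slc2a10, which changed by -0.34 ± 0.10 (adjusted p = 0.0304) at a mean score of -0.45. The change of slc2a10 was -0.17 without the third GFP- array at 2 dpf (adjusted p = 0.24), and 4 of the 24 fits without 1 array lost the call. Quantile normalization (adjusted p = 0.0715) and a fit on the compared arrays alone (adjusted p = 0.145) lost it too. The RNA quality measure on the array, the score of the 3' minus that of the 5' GAPDH control, was -0.13 to 0.27 in GFP+ cells at 6 dpf, against 0.40 to 0.76 in GFP+ cells at 2 dpf. In GFP- cells it was 0.24 to 0.85 at 6 dpf, against 0.24 to 0.27 at 2 dpf. The measure thus also differed between the gates: at 2 dpf all GFP+ arrays lay above all GFP- arrays, and at 6 dpf the GFP+ range was the lower, with overlap. Its part in the changes with age, in the gate differences and in their change was not tested.

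Whether the gate difference itself changed was tested as the difference at 6 dpf minus that at 2 dpf. As a signed value it was more positive at 6 dpf for 14 carriers and more negative for 8 (all genes: 4.39% and 5.41%), and the F test over all 4 ages called 20 (all genes: 8.04%). The 14 included 5 metal carriers, slc30a6, slc30a7, slc39a3, slc39a6 and slc39a7, and 4 mitochondrial carriers, slc25a20, slc25a3b, slc25a48 and slc25a55b. The largest changes upward were those of slc38a4 (1.40 ± 0.33, adjusted p = 0.00956), slc4a2a (1.39 ± 0.30, adjusted p = 0.00563), slc22a2 (1.25 ± 0.27, adjusted p = 0.00589) and slc25a20 (1.19 ± 0.27, adjusted p = 0.0079). For slc4a2a and slc6a11a the positive change was the loss of a lower level in GFP+ cells, since both fell in GFP- cells.

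The largest changes downward were those of slc25a3a (-1.63 ± 0.25, adjusted p = 0.000455), slc16a3b (-1.60 ± 0.33, adjusted p = 0.00414) and slc5a12 (-1.54 ± 0.25, adjusted p = 0.000657). In each of the 3 the GFP- arrays at 6 dpf lay above those at 2 dpf without overlap. Several calls lay near the threshold, and not only small changes. That of slc25a48, with a change of 1.18, was lost in 16 of the 24 fits without 1 array. The call of slc9a7 was lost in 15, of slc39a7 in 12, of slc30a7 in 9 and of slc39a6 and slc43a2a in 8 each. That of slc3a2b was lost in 6, of slc37a4b in 3 and of slc30a6 in 2. Among the zinc carriers slc39a3 thus kept its call in all 24.

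**Figure D5:**
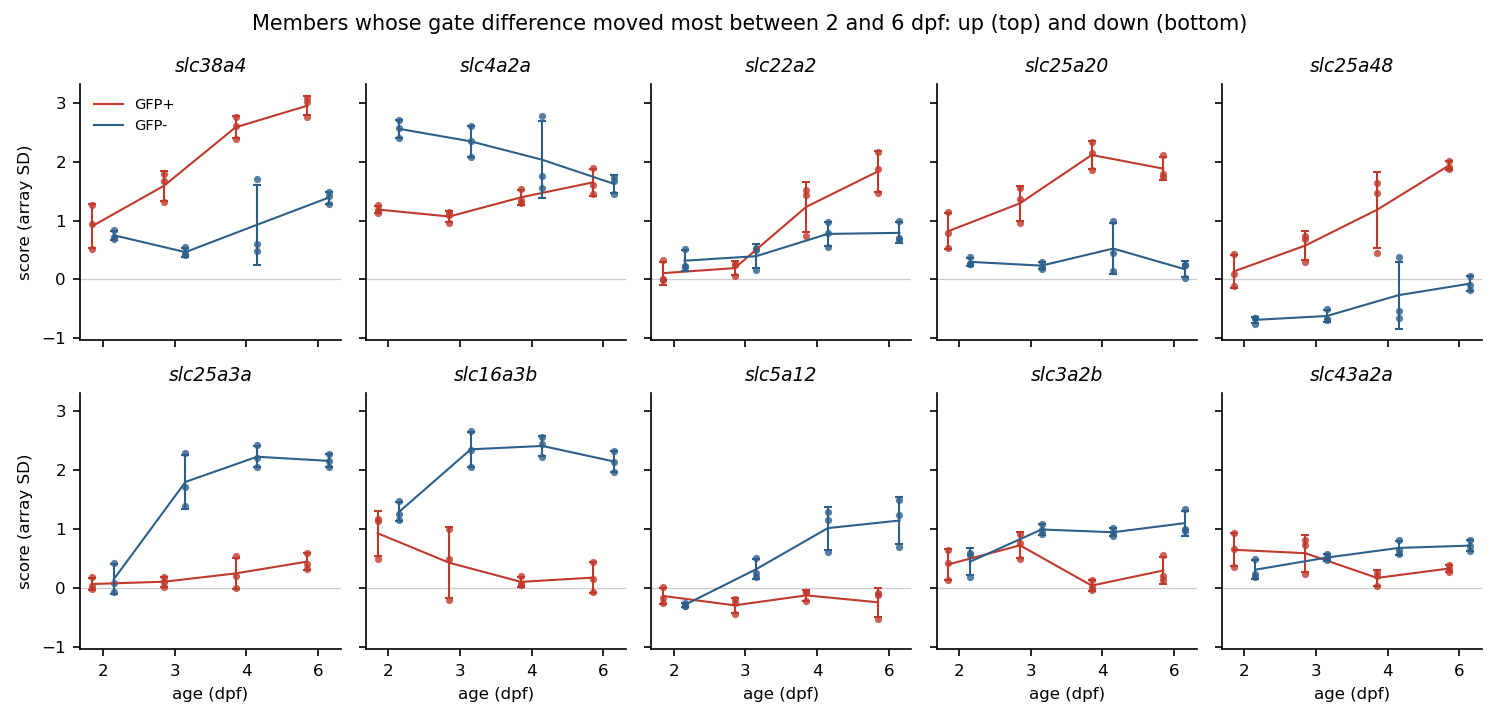
Scores on every array for the 5 solute carriers with the largest signed change of the GFP+ minus GFP- difference upward (top row) and downward (bottom row) between 2 and 6 dpf. The x axis is age in dpf and the y axis the score in array SD; points are arrays (red GFP+, blue GFP-), lines join group means and bars are ± 1 SD of 3 arrays. slc4a2a starts lower in GFP+ cells and meets the GFP- arrays at 6 dpf, while slc25a3a, slc16a3b and slc5a12 are close at 2 dpf and apart at 6 dpf.

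Transporter genes outside the slc symbols are set beside the same shares of all genes, 40.6% higher and 20.9% lower. The sodium gradient that many carriers use is made by the Na+/K+ ATPase, and of its 13 measured subunits 10 were lower and 2 higher in GFP+ cells over the 4 ages, with a median difference of -0.93. The lowest were the beta subunits atp1b2a (-1.80 ± 0.08) and atp1b1b (-1.74 ± 0.10) and the neuronal alpha subunit atp1a3a (-1.59 ± 0.08), and the 2 higher were atp1a1a.4 and atp1b1a. Both organic anion carriers of the slco type were higher, slco1d1 by 1.94 ± 0.11. Of 14 genes with ABC symbols 5 were higher, abcc4, abcd3a, abce1, abcf1 and abcf2a, and 2 lower, abca12 and abca7. By symbol this list takes in abce1, abcf1 and abcf2a, which are not pumps. Of 5 aquaporins 2 were higher, aqp12 and aqp8a.1, and 2 lower. These lists were not tested against the slc genes.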

How the data were processed

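The authors deposited 1 score per probe set and array, 15617 probe sets on 24 arrays, and the submitters' processing notes name RMA. Each array had median 0 and SD 1. No source used here states the log base or how arrays were scaled, so no fold changes are given, and the tests planned for log values were run on the scores. After leaving out 115 controls, 15502 probe sets were tested with limma 3.58.1 in R 4.3.3, with 8 group means, no filter on signal, two-sided moderated tests and Benjamini-Hochberg adjustment over all probe sets within each comparison (prior degrees of freedom 3.6). Errors after a difference are standard errors from that fit. Precision is limited by the number of arrays. The annotation paired 10795 probe sets with 1 symbol, 135 with several and 4572 without any, and all 158 slc probe sets with 1 symbol matched by gene identifier. One symbol-matching gene is not reported here.

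The solute carrier genes, the roles, the other transporter lists and the markers were chosen with earlier results of these data known. Genes named by rule were the 12 largest called differences each way over the 4 ages with 1 sign at every age, the 5 each way at each age, the 6 each way for the changes between 6 and 2 dpf, the highest and lowest of each family with at least 4 members and carriers with a well known place. Others are named as examples after their values were seen. Residuals of same-numbered arrays correlated between -0.079 and 0.312 (mean 0.081), over 0.1 in 4 of 12 pairs, so the numbers were not taken to pair samples, and the replicate block was an alternative. Others were array weights, quantile normalization, a robust trended prior, averaging the probe sets of each gene, a score or size minimum, the compared arrays alone, and leaving out arrays.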

Additional observations from a re-analysis of the deposited data

Results flagged for a closer look

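For 22 solute carrier genes a test of the change itself called the GFP+ minus GFP- difference at 6 against 2 dpf (limma, adjusted p under 0.05). The 6 largest changes each way, 12 genes, are listed here. Of these, slc25a48, slc43a2a, slc3a2b and slc37a4b lost their call in 16, 8, 6 and 3 of the 24 fits without 1 array. The signed difference was more positive at 6 dpf by 1.40 for slc38a4, 1.39 for slc4a2a, 1.25 for slc22a2, 1.19 for slc25a20, 1.18 for slc25a48 and 1.09 for slc25a55b. It was more negative at 6 dpf, with a change of -1.63 for slc25a3a, -1.60 for slc16a3b, -1.54 for slc5a12, -0.76 for slc3a2b, -0.73 for slc43a2a and -0.70 for slc37a4b. For slc4a2a the gates came closer, and for slc25a3a, slc16a3b and slc5a12 they moved apart. The gap test for a single outlying sample was not run, since it needs groups of at least 4.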

How the results depend on the processing

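No called member changed direction in any of the 24 fits without 1 array or the 10 other settings. Of 431 pairs of a member and a comparison examined, 149 changed their call under at least 1 of these. The pairs were all 136 members over the 4 ages and, in the other comparisons except the F test, only members already called. Calls gained at a single age or between ages are thus not among the 149. Without 1 array the members called numbered 97 to 103 over the 4 ages, 18 to 29 at 2 dpf, 40 to 58 at 3 dpf, 50 to 70 at 4 dpf, 63 to 78 at 6 dpf, 25 to 42 for age in GFP+ cells, 14 to 26 in GFP- cells, 13 to 25 for the gate difference and 12 to 30 for the F test. The lowest came without the first GFP- array at 6 dpf (14), and without the second (13 and 12) or the first (13, F test) GFP+ array at 2 dpf. Array weights called 38 at 2 dpf, 60 and 39 for age in GFP+ and GFP- cells, 38 for the gate difference and 46 by F test, against 24, 35, 22, 22 and 20. A minimum difference of 1 array SD left 12 over the 4 ages, 6, 16, 19 and 20 at 2, 3, 4 and 6 dpf, 8 and 5 for age, and 9 for the gate difference. A mean score of at least 0 left 67 over the 4 ages, since it tests fewer genes. Fits on the compared arrays alone called 36 at 4 dpf, against 61, and 35 for age in GFP- cells. Leaving out the second arrays at 4 dpf, an alternative chosen after seeing the data, moved no count by over 1.5 times. Other causes were not tested. The replicate block called 99 over the 4 ages and 22 for the gate difference, and moved no count by over 1.5 times. Among other members, it ended the calls of slc12a3 and slc25a37 over the 4 ages (adjusted p = 0.0624 and 0.0583) and of slc37a4b and slc43a2a for the gate difference (adjusted p = 0.0562 and 0.0609), and called slc6a19b and slc12a7b over the 4 ages (adjusted p = 0.0248 and 0.049). Few arrays, and scores near the dim end, limit what small differences can show.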
